A study of Mus musculus with 6 samples.

Results

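The genes described here are 10 transcription regulators of the AP-1 and immediate early class: Jun, Junb, Jund, Fos, Fosl1, Fosl2, Egr1, Myc, Atf3 and Ier2. They were taken by name, and each was represented by a single probe set, out of 19938 genes measured. The RNA was that of immortalized mouse podocytes after differentiation, a line that grows at 33°C with gamma-interferon and was switched to 37°C without it to differentiate. One group of 3 samples held RNA captured from cytoplasmic extracts on protein G beads with a Staufen2 antibody. The other group of 3 samples held total input RNA of the same kind of cells. No genotype or drug differed between the groups, and a control-antibody pulldown was not part of the data used here, so a higher value describes recovery relative to the input. Each array was labelled from 100 ng of RNA, so the arrays compare composition whatever the yield. All samples come from this 1 line, and whether replicates are separate cultures is not stated. The p-values therefore cover the spread between these samples alone, which may be technical.

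Immediate early genes are transcribed within minutes of a stimulus without new protein synthesis, and their mRNAs are as a rule short-lived. AP-1 is a dimer of basic leucine zipper (bZIP) proteins. Jun proteins pair with each other or with Fos proteins, whereas Fos proteins need another bZIP partner such as Jun. AP-1 is known for its part in responses to growth factors, stress and injury in many cell types, kidney cells among them. Staufen2 binds double-stranded stretches of RNA and has been studied most for carrying mRNAs along neuronal processes.

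Jun and Fos are the usual AP-1 pair, and their mRNAs differed in opposite directions here. The stretches just before their start sites are shown with that of Atf3 as background, since some promoter elements take part in inducing early genes. The pulldown and input values compare RNA recovery, not transcription. The sequences are those of RefSeq on GRCm38.p6, 5′ to 3′ on the gene's strand, 130 bases each and ending just before the start site. Capitals mark every match on either strand to any of 6 motifs. They are the core of the cAMP response element (TGACGT), the AP-1 site (TGACTCA), an AP-1-like site of the Jun promoter (TGACATCA), the CCAAT box (spelled as named), the TATA box (TATAAA) and the CArG box. No match to one overlapped a match to another in these stretches.
Jun, chr4:95052223-95052352, minus strand: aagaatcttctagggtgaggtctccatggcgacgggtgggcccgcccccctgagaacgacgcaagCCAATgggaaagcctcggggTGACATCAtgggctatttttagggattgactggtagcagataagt
Fos, chr12:85473760-85473889, plus strand: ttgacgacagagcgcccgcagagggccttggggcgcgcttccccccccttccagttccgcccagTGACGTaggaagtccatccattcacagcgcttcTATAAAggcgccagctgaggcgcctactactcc
Atf3, chr1:191183334-191183463, minus strand: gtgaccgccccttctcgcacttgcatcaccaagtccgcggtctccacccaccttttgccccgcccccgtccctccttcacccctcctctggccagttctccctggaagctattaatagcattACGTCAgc
Of the 10 genes, 6 had a sequence in the table used. Within 250 bases before the start, TGACATCA was found in Jun, first base at -45, and in 2.93% of all 32851 windows searched. TGACGT was found in Fos at -66 and in Atf3 at -8, against 6.47% of all windows. The CCAAT box occurred in Jun and Junb (33.8% of windows), TATAAA in Fos (12.4%), and the AP-1 site (4.46%) and the CArG box (1.47%) in none of the 6. Sites further from the start were not searched, so a gene without a match here may hold one there. Egr1 was among the genes without a sequence. These matches describe letters in the DNA, and the arrays do not measure what binds there.

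The question was which of these mRNAs took a larger share of the RNA found with Staufen2 than of the total RNA, and which a smaller one. They went both ways. Myc, Jun and Fosl2 were higher in the pulldown, Jund, Fos, Ier2 and Egr1 were lower, and Junb, Fosl1 and Atf3 did not pass the test. That is 7 of 10 called, 3 higher and 4 lower, where among all genes 48.7% were called, 31.3% higher and 17.3% lower. All 10 are above the median level, and among the 11637 protein-coding genes above it 73.6% were called, 46.7% higher and 26.8% lower, so a share of 7 in 10 is near that of other expressed genes. The median log2 difference of the 10 was -0.02, against 0.04 for all genes and 0.09 for those coding genes. None of the 10 reached a 2-fold difference, as did 3.67% of all genes. Calls are those of limma's moderated test with p-values adjusted over all genes (Benjamini-Hochberg, threshold 0.05), and a difference is pulldown minus input on the log2 scale. With 3 samples in each group, the smallest p that exact permutation allows is 0.10.

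**Figure D1:**
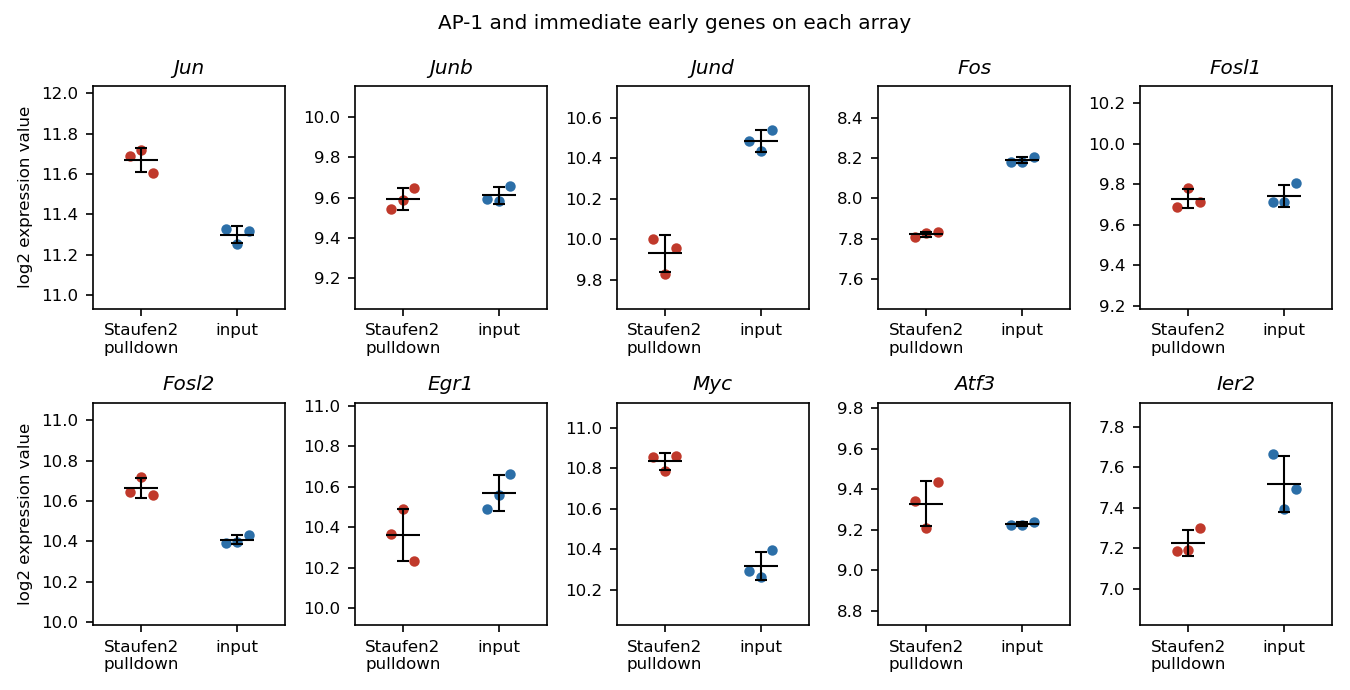
Log2 expression value of each gene on each array (dots), with the mean (wide bar) and SD (capped line) of the 3 Staufen2 pulldown and the 3 input samples; every panel covers the same height of the log2 axis. Myc, Jun and Fosl2 lie above the input on all pulldown arrays, Jund, Fos and Ier2 below it, and the groups overlap or touch in Junb, Fosl1, Atf3 and Egr1.

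Among the Jun family, Jun encodes c-Jun, the member with the strongest activating domain. Jun stood at 11.69, 11.72 and 11.60 in the pulldown arrays, against 11.33, 11.25 and 11.32 in the input arrays (log2 values). All pulldown values were above all input values. The difference was 0.37 ± 0.039 (SE; adjusted p = 0.000118), or 1.29-fold. Jund, the member that many cells express without a stimulus, stood at 10.00, 9.83 and 9.96 in the pulldown and 10.48, 10.43 and 10.54 in the input. Here all pulldown values were below all input values. The difference of -0.56 ± 0.051 (adjusted p = 5.01e-05) is a ratio of 0.680 and the largest in size of the 10. Junb, a weaker activator that can oppose c-Jun, stood at 9.54, 9.59 and 9.65 in the pulldown and 9.59, 9.58 and 9.66 in the input. The groups overlapped, and the difference was -0.02 (95% interval -0.11 to 0.07, adjusted p = 0.73).

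The 3 Jun genes thus had 3 different outcomes. Jun exceeded Jund by 0.93 in difference, Jun exceeded Junb by 0.39 and Junb exceeded Jund by 0.54. In each of these 3 pairs the within-array log2 ratio of the 2 genes did not overlap between pulldown and input (exact permutation p = 0.10 each, 2-sided, the smallest this design allows, not adjusted over the 45 pairs of the 10 genes). The same held in 36 of all 45 pairs, so it was the usual outcome and not particular to these.

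The Fos family also split. Fos encodes c-Fos, the classic immediate early partner of c-Jun, and stood at 7.81, 7.83 and 7.83 in the pulldown, against 8.18, 8.18 and 8.21 in the input. The replicates were tight in both groups, with an SD of 0.013 in the pulldown and 0.014 in the input, and the groups lay apart. Its difference was -0.37 ± 0.026 (adjusted p = 1.24e-05), a ratio of 0.776. Fosl2 encodes Fra-2, a Fos protein without the strong activating domain of c-Fos. Fosl2 stood at 10.65, 10.72 and 10.63 in the pulldown and 10.39, 10.40 and 10.43 in the input. Every pulldown value was above the input, with a difference of 0.26 ± 0.034 (adjusted p = 0.000408), or 1.19-fold. Fosl1, which encodes the related Fra-1, stood at 9.69, 9.78 and 9.71 in the pulldown and 9.71, 9.71 and 9.81 in the input. The groups overlapped, and the difference was -0.02 (95% interval -0.11 to 0.08, adjusted p = 0.77). The difference of Fos was 0.62 below that of Fosl2 and 0.35 below that of Fosl1, and that of Fosl1 was 0.27 below that of Fosl2. In these 3 pairs, too, the within-array ratios did not overlap between the groups, as in 36 of all 45 pairs (exact permutation p = 0.10 each, 2-sided).

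Myc, the bHLH zipper factor that acts with Max on genes of growth and biosynthesis, had the largest positive difference of the 10. Myc stood at 10.86, 10.78 and 10.86 in the pulldown, against 10.29, 10.26 and 10.39 in the input. The groups were far apart relative to their spread. The difference was 0.52 ± 0.043 (adjusted p = 2.87e-05), or 1.43-fold, and exceeded that of 89.4% of all genes. Jun exceeded 84.0% and Fosl2 78.7% of genes. Jund stood at the other end, above 6.44% of genes, followed by Fos at 9.85%, Ier2 at 11.5% and Egr1 at 14.1%.

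Ier2 encodes a small nuclear protein and spans the least DNA of the 10. Ier2 stood at 7.18, 7.19 and 7.30 in the pulldown, against 7.66, 7.39 and 7.50 in the input. The pulldown values were all lower, although the input arrays scattered (SD 0.14). Its difference was -0.29 ± 0.070 (adjusted p = 0.0096). Atf3, a stress-induced bZIP factor that often acts as a repressor, stood at 9.34, 9.21 and 9.43 in the pulldown and 9.22, 9.22 and 9.24 in the input. One pulldown array lay below and the other pulldown arrays above the input. The difference was 0.10 (95% interval -0.03 to 0.23, adjusted p = 0.17), and without replicate 2 of the pulldown it was 0.16 and passed (adjusted p = 0.013).

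Egr1, a zinc finger factor induced by growth factors through serum response factor, stood at 10.37, 10.49 and 10.23 in the pulldown, against 10.49, 10.56 and 10.66 in the input. The highest pulldown value equalled the lowest input value. The difference of -0.21 ± 0.071 passed narrowly (adjusted p = 0.046). The call ended on leaving out pulldown replicate 1 (adjusted p = 0.11) or 3 (0.14), or input replicate 1 (0.054), 2 (0.11) or 3 (0.16). Of the 6 fits that leave out 1 array, it held only in that without pulldown replicate 2.

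In 6 of the 10 genes the groups did not overlap, near the 55.9% of all genes for which this held. All 10 were brighter in the input than the median of all probe sets (6.54), from 7.52 for Ier2 to 11.30 for Jun. Standard errors of the 10 differences were 0.026 to 0.071, with a median of 0.041 against 0.039 for all genes.

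**Figure D2:**
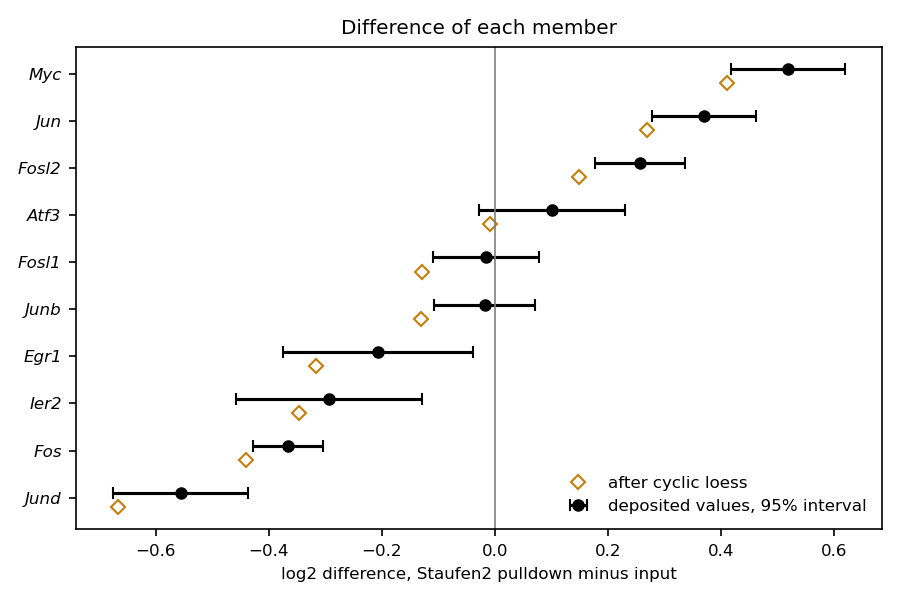
Log2 difference (pulldown minus input) of each gene as deposited, with its 95% interval (black dots and bars), and after cyclic loess scaling of the arrays (open diamonds). Every gene moves down under cyclic loess, and Junb and Fosl1 then fall at -0.13 each.

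The scaling of the arrays mattered for the genes near 0. After cyclic loess, which removes trends of the difference with brightness, each of the 10 differences was lower. Junb and Fosl1, both at -0.13, then passed the test as lower (adjusted p = 0.016 and 0.031), which makes 6 lower and 3 higher of 10. Over all genes lower calls rose from 3459 to 4565 and higher calls fell from 6246 to 5127. Of coding genes above the median level spanning 1 to 3, 3 to 10 and 10 to 30 kb, 59.8%, 56.8% and 40.7% were then lower. In the same classes 8.5%, 15.9% and 31.0% were higher. Atf3 stood at -0.01 (adjusted p = 0.89). The directions of the 7 called genes were kept, with Myc at 0.41, Jun at 0.27, Fosl2 at 0.15, Egr1 at -0.32, Ier2 at -0.35, Fos at -0.44 and Jund at -0.67. The median over all genes moved little, to 0.02.

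Among protein-coding genes above the median level, pulldown differences followed genomic span, the distance on the chromosome from start to end of a gene. Spearman's rank correlation was 0.48 across these 11637 genes, given without a p, as genes do not vary independently. With dim coding genes included, the median difference was 0.015 under 1 kb, 0.006 at 1 to 3 kb and 0.004 at 3 to 10 kb. It was 0.037 at 10 to 30 kb, 0.12 at 30 to 100 kb and 0.18 over 100 kb. Spans come from RefSeq's mouse gene table and include introns, so they are a coarse measure of mRNA size. The 10 genes are compact. Ier2, Junb and Jund span 1.52, 1.84 and 2.88 kb, Jun 3.19, Fos 3.38, Egr1 3.75, Myc 5.02 and Fosl1 8.24 kb, and Atf3 and Fosl2 13.0 and 21.4 kb.

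Set against genes of their own span class, the positive differences of Myc and Jun stood out more. Of 2223 coding genes above the median level that span 3 to 10 kb, 21.5% were called higher and 46.3% lower, with a median difference of -0.09. Myc lay above 96.1% and Jun above 92.1% of them. Fosl1 lay above 58.9%, Egr1 above 40.2% and Fos above 30.2% of the same class. Jun and Fos, which differ by 0.2 kb in span, lay 0.46 above and 0.28 below the class median. Span includes introns, so their mRNAs need not be alike in size.
Of 585 such genes spanning 1 to 3 kb, 13.8% were higher and 51.3% lower, with a median of -0.16. Within that class Jund, low among all genes, was not extreme, since it lay above 30.4% of its span class. Ier2 lay above 43.1% and Junb above 62.6%. Of 3861 genes spanning 10 to 30 kb, 40.4% were higher and 30.2% lower (median 0.05). Fosl2 lay above 73.2% and Atf3 above 57.5% of them. These positions are descriptions with no test, and whether mRNA size or structure had a part in them was not tested.

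**Figure D3:**
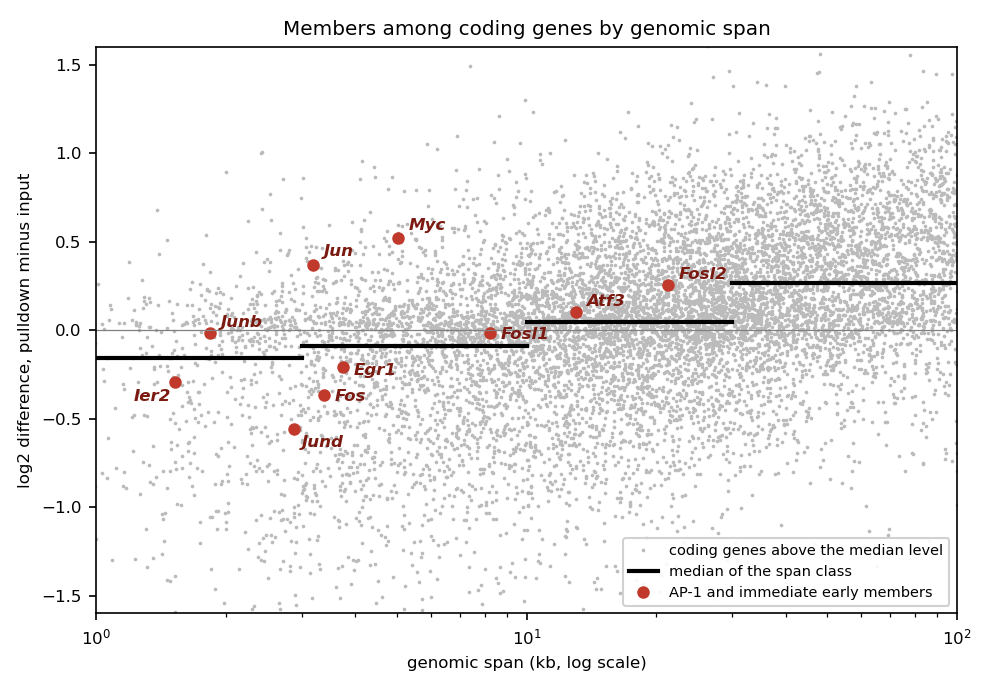
Log2 difference (pulldown minus input) against genomic span on a log scale for coding genes above the median level (grey; only spans of 1 to 100 kb and differences within the axis are drawn), the 10 AP-1 and immediate early genes (red) and the median of each span class (black lines). Myc and Jun lie far above, and Jund and Fos below, the median of their class.

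Other bZIP factors, which include further AP-1 partners, were mostly higher or not past the test. Among 26 measured, 13 were higher and 2 lower, the other 11 missed the threshold, and the median was 0.15. Of the 23 above the median level, 13 were higher and 2 lower, where 46.7% of coding genes above that level were higher and 26.8% lower. Bach1, a repressor of antioxidant genes that pairs with small Maf proteins, was higher by 0.82 ± 0.036 (SE). The small Maf gene Mafk was higher by 0.68 ± 0.045, and Creb1 and Atf6, activators that respond to cAMP and to endoplasmic reticulum stress, by 0.54 each. Fosb, the remaining Fos gene, differed by 0.20 and did not pass (adjusted p = 0.093). It and Jdp2, a bZIP repressor that binds Jun proteins and was higher by 0.21, were chosen after their values were seen. After cyclic loess 6 of the 26 were lower and 11 higher. Over all genes lower calls rose from 3459 to 4565 under that scaling, and higher calls fell from 6246 to 5127.

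A wider list of immediate early genes took in phosphatases, zinc finger factors and secreted factors. Among 52 measured, 28 (53.8%) were higher and 8 (15.4%) lower, and the median was 0.13. The share of higher calls is not far from the 46.7% of coding genes above the median level, to which 50 of the 52 belong by level, and 26.8% of those coding genes were lower. Bhlhe40, a bHLH repressor with a part in the circadian clock, stood at 10.49 on all 3 pulldown arrays, against 9.93, 9.89 and 9.90 in the input, a difference of 0.59 ± 0.026. Tnfaip3, the ubiquitin-editing enzyme A20 that restrains NF-kappaB, was higher by 0.74 ± 0.037, and the chromatin factor Arid5b by 0.57 ± 0.031. Id1, an inhibitor of bHLH factors, was lower, at 9.14, 9.02 and 9.12 in the pulldown against 9.94, 9.85 and 9.90 in the input (difference -0.80 ± 0.042). Its relatives Id3 and Id2 were also lower, at -0.99 and -0.65, and were named after their values were seen. After cyclic loess the list had 19 higher and 13 lower, while lower calls over all genes rose from 3459 to 4565.

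The calls of this list differed by span class. Of its 22 genes of the 3 to 10 kb class above the median level, 15 were higher and 0 lower by limma at an adjusted p under 0.05, in a class where 21.5% were higher and 46.3% lower. After cyclic loess, 10 of the 22 were higher and 1 lower, where 15.9% of the class was higher and 56.8% lower. Of its 15 genes of the 1 to 3 kb class, 3 were higher and 7 lower, near the 13.8% higher and 51.3% lower of that class. In all, 40 of the 50 genes of this list above the median level lay above the median of their own span class, as did 6 of the 10 AP-1 and immediate early genes. No test was made of these shares, and the list was chosen with earlier results of these data known.

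**Figure D4:**
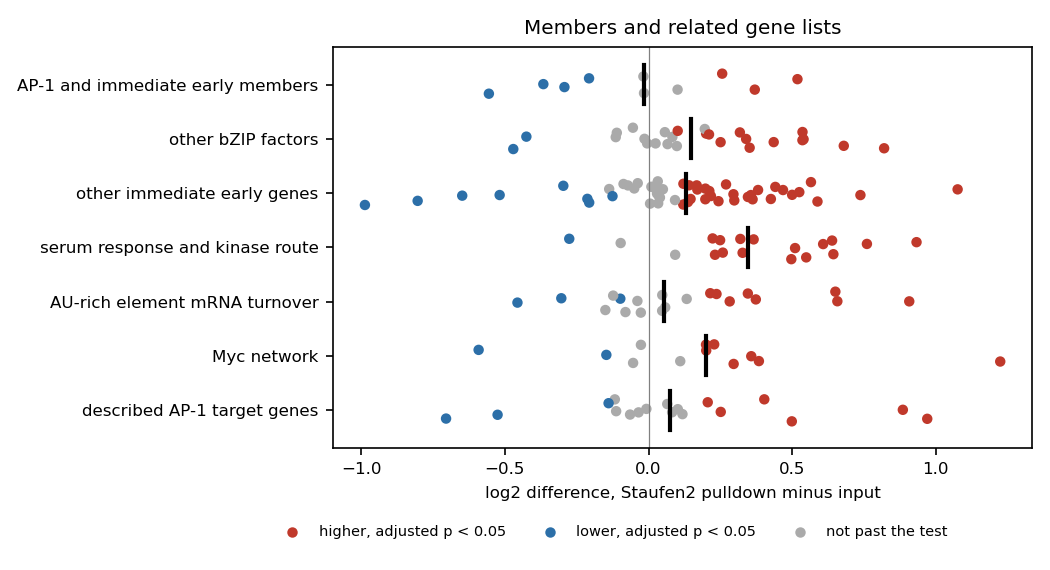
Log2 difference (pulldown minus input) of the 10 genes and of the genes of 6 related lists, coloured by the limma call, with the median of each list as a black bar; vertical scatter within a list has no meaning. The 10 genes lie between -0.56 and 0.52 with a median of -0.02, and the serum response and kinase list has the highest median, 0.35.

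The route from growth factor receptors to these genes runs through Ras, Raf and MAP kinases to serum response factor and its cofactors. Of 18 measured genes of that route, 15 (83.3%) were higher, 1 lower and 2 did not pass, with a median of 0.35, and 7 of the 18 span over 100 kb, a class in which 1148 of 1530 coding genes above the median level were higher. Mrtfb, an actin-regulated cofactor of serum response factor, was higher by 0.93 ± 0.045, the kinases Braf and Mapk14 (p38 alpha) by 0.64 ± 0.030 and 0.51 ± 0.029, and the ETS cofactor Elk4 by 0.55 ± 0.031. Around Myc, 7 of 12 genes, all above the median level, were higher and 2 lower (median 0.20), against the same 46.7% and 26.8%. Mga, a large Max-binding repressor, was higher by 1.22 ± 0.032, and Mlxip and Mnt, of the same network, by 0.38 and 0.36, while Mlx, the partner of Mlxip, was lower, at -0.59 ± 0.038. Max itself, named after its value was seen, differed by -0.05 and did not pass (adjusted p = 0.33).

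Immediate early mRNAs commonly carry AU-rich elements that recruit decay factors. Of 20 genes of that turnover machinery, all above the median level, 8 were higher and 3 lower (median 0.05), which as shares of the list are under the 46.7% and 26.8% of coding genes above that level. The exonuclease Xrn1, the deadenylase scaffold Cnot1 and the decapping enzyme Dcp2 were higher by 0.91 ± 0.031, 0.66 ± 0.028 and 0.65 ± 0.029, and the exosome subunit Exosc4 was lower, at -0.46 ± 0.047. After cyclic loess 8 of the 20 were lower and 8 higher, while lower calls over all genes rose from 3459 to 4565. Of 18 genes described as AP-1 targets, 6 (33.3%) were higher and 3 (16.7%) lower (median 0.07), near the 31.3% and 17.3% of all genes. The growth factor Vegfa and the cyclin Ccnd1 were higher by 0.97 ± 0.030 and 0.89 ± 0.028, the membrane protease Mmp14 by 0.50 ± 0.035, and the haem oxygenase Hmox1 was lower, at -0.71 ± 0.029. After cyclic loess 6 of these 18 were lower and 5 higher, with the same rise of lower calls over all genes.

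The 3 genes whose profile over the 6 arrays was nearest to that of Jund, the called gene with the largest difference, were Pycrl, Tor1a and Rab4a, at Euclidean distances of 0.048, 0.066 and 0.069 after the input mean of each gene was subtracted. Their differences were -0.58, -0.57 and -0.55.

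The arrays as a whole were uniform, with medians of 6.53 to 6.54 and Pearson correlations of 0.998 to 0.999 within and 0.982 to 0.983 between groups. Stau2 mRNA itself did not pass the test (-0.02, adjusted p = 0.52), and its level does not check the pulldown of the protein. Of the podocyte markers, Wt1 (9.57 in the input) and Synpo (8.29) exceeded the median probe set and Nphs1 (6.30) and Podxl (6.04) lay below it, where signal can be background. Of 10 measured podocyte markers 6 were higher and 0 lower by limma, 1 of the 6 being the dim Podxl (0.32, adjusted p = 0.00044). The 10 averaged 8.89 to 8.90 in the pulldown and 8.65 to 8.70 in the input, where 6 of them exceeded the median probe set. Of the podocyte markers above the median level, 5 span 30 to 100 kb, and 4 of these 5 were higher. In that class 2157 of 3342 coding genes above the median level were higher. The remaining 1, also higher, spans over 100 kb, a class in which 1148 of 1530 such genes were higher. Mesangial and fibroblast markers averaged 8.79 to 8.86 in the pulldown and 8.58 to 8.64 in the input (2 of 6 higher). In the input, Acta2 (13.57) and Pdgfrb (11.45) exceeded Wt1 and Synpo, while Des, Itga8 and Pdgfra lay below the median probe set. Gata3 (8.84 in the input) lay between Synpo and Wt1, and its difference of 0.82 was the largest of that list. These mesangial and fibroblast genes were named after their values were seen. Endothelial markers averaged 6.48 to 6.51 and 6.37 to 6.41 (3 of 6 higher, 1 lower), tubular markers 6.94 to 6.99 and 6.80 to 6.85 (2 higher, 1 lower) and immune markers 6.37 to 6.40 and 6.51 to 6.57 (3 lower). The 2 immune markers above the median level, both lower, span 1 to 3 kb, a class with 51.3% lower. Over all genes 31.3% were higher and 17.3% lower. The part of these markers in the differences above was not tested.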

How the data were processed

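RNA of 3 Staufen2 pulldown and 3 input samples was measured on 1-colour arrays. The authors deposited 1 log2 value for each probe set and array, computed with RMA per the submitters' processing notes. Limma is named there too, and no version is given in those notes. RMA scales arrays to a common distribution, so a difference is relative to the rest of the RNA on the array. Of 35556 probe sets, 21789 had 1 gene symbol in the platform's annotation, and the brightest per gene over the 6 arrays gave 19938 genes. The 10 members have 1 such probe set each.

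All genes were fitted with limma 3.58.1 in R 4.3.3 (pulldown minus input, no covariates, Benjamini-Hochberg over all genes). The procedure was tested on simulated data. Genomic spans of 19856 genes and promoter sequences came from RefSeq tables on GRCm38.p6. A planned grouping by protein length was not run, since no protein table was used here. Figures were drawn with matplotlib 3.10.9. The number of arrays limits the precision.

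The members, the related lists and the naming rule were chosen with earlier results of these data known. The rule named all members, the 4 genes of each related list with the smallest adjusted p, 5 podocyte markers, Stau2 and the 3 nearest profiles. Of the listed genes, those without a probe set of their own were not analysed here. The alternatives were a replicate block, a variance trend, cyclic loess, centring on the probe sets above the 75th percentile of brightness, a filter on dim genes, the mean or the dimmest of a gene's probe sets, limma's treat at 1.2-fold, and leaving out each array.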

Additional observations from a re-analysis of the deposited data

How the results depend on the processing

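The directions of the 7 called members held under all 14 alternatives. Against a 1.2-fold change, 1 member (Myc) was higher and 2 (Jund and Fos) were lower, and over all genes 3034 were higher and 1822 lower, against 6246 and 3459 in the test against no change. Under that stricter test 7 other bZIP factors, 9 other immediate early genes, 8 serum response and kinase genes, 3 AU-rich turnover genes and 2 Myc network genes were higher, and 4 other immediate early genes, 0 serum response and kinase genes, 1 AU-rich turnover gene and 1 Myc network gene were lower. A stricter threshold by construction calls fewer genes. Cyclic loess gave more lower calls, with 6 other bZIP factors, 13 other immediate early genes, 2 serum response and kinase genes, 8 AU-rich turnover genes and 6 AP-1 targets lower, and 1 lower among the other immediate early genes of 3 to 10 kb, a count made after seeing the data. Over all genes it called 5127 higher and 4565 lower. Centring on the brightest probe sets gave 4, 2, 5 and 6 lower among other bZIP factors, serum response and kinase, AU-rich turnover and AP-1 target genes, and 5398 higher and 4227 lower over all genes. The causes of these shifts were not tested. Leaving out each array in turn gave 3 to 4 members higher and 3 to 4 lower, 1 to 2 Myc network genes lower (1 without pulldown replicate 2 or 3, or input replicate 1 or 3), and 1 to 2 serum response and kinase genes lower (2 without input replicate 2). Same-numbered samples did not deviate together (correlations of 0.024, 0.11 and -0.060), so the numbers were not taken as pairs. With the replicate block 3 members were higher and 3 lower, Egr1 standing at an adjusted p of 0.063. The choice of probe set could not move the members, which have 1 each. Each count was compared with its main value once per alternative in which it was made. Of these comparisons, 198 stayed within 1.5 times and 28 moved further.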

Other observations

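Several of the values above were equal between arrays to all deposited digits. Fosl1 had the same value on 1 pulldown and 2 input arrays, and Egr1 on 1 pulldown and 1 input array. Among all 19938 genes, 30.8% had an equal value on at least 2 arrays and 13.8% on at least 3. Equal values narrow the spread between replicates. How they arose was not tested.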
